A study of Mus musculus with 23 samples.

Results

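The acyl-CoA thioesterase genes examined here are *Acot1*, *Acot2*, *Acot3*, *Acot4*, *Acot5*, *Acot7*, *Acot8*, *Acot9*, *Acot12* and *Acot13*. They were chosen by name, as all array probes whose gene name is 1 of these 10 symbols. This gave 15 probes, all of which passed the filter on dim probes, so that the 10 genes stand among 21056 genes and 32087 probes tested. Liver RNA of 23 male mice of the C57Bl6/J background was hybridised to Agilent 1-colour arrays, 1 array per mouse. Wild-type (WT) mice and mice that lack the nuclear receptor PXR (*Pxr*-/-) received daily intraperitoneal injections for 4 days, either of corn oil alone or of corn oil with 100 mg/kg of pregnenolone 16α-carbonitrile (PCN), a ligand of mouse PXR. The groups were WT CONT (n = 6), WT PCN (n = 5), *Pxr*-/- CONT (n = 6) and *Pxr*-/- PCN (n = 6). All mice were killed at zeitgeber time (ZT) 6, which was 6 h after the last PCN injection. The labels call the mice fed, and the study's text describes them as semi-fasted at that hour. WT mice were purchased at 6 weeks of age and *Pxr*-/- mice were bred in the animal facility, both were acclimatized for 2 weeks, and the age of the *Pxr*-/- mice was not given in the sources used here. Genotype and colony cannot be told apart. Values below are quantile normalized log2 signals. A probe was called when its limma adjusted p was no higher than 0.05 and its fold change exceeded 1.5, and a gene was called when any of its probes was.

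Acyl-CoA thioesterases cleave fatty acyl-CoA into a free fatty acid and coenzyme A. They oppose the acyl-CoA synthetases and so set how much acyl-CoA is open to oxidation, esterification or signalling in each compartment of the hepatocyte. *Acot1* encodes a cytosolic enzyme of long-chain acyl-CoA and *Acot2* its mitochondrial counterpart, while *Acot3*, *Acot4*, *Acot5* and *Acot8* encode peroxisomal enzymes. Several of these genes are textbook targets of PPARα, the receptor that turns on fatty acid oxidation in the fasted liver. *Acot1* to *Acot6* arose by duplication and lie side by side on mouse chromosome 12.

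Because the chromosome 12 genes are close relatives, the sequences that measured them are shown first. The array files place their probes, each 60 bases long, at chr12:85358452-85358511 for *Acot1*, chr12:85334553-85334612 for *Acot2*, chr12:85400452-85400511 for *Acot3* and chr12:85384821-85384880 for *Acot4* (build mm9). The first 30 bases of each probe, 5′ to 3′, read as follows, with no part set in capitals.
Acot1: tatcaaaatagtgctgattcaagggctggg
Acot2: atggtagaaggagagaacaaactctgacaa
Acot3: gtgtacacacacacatatacacacaagcac
Acot4: tgctggatgacatgaaattcatgtttaggg
The longest run of bases that any of the 15 probes shared with a probe of another of the 10 genes was 9 bases, found between the *Acot2* and *Acot3* probes. The probes therefore read different stretches, but hybridisation to other transcripts was not tested.

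The tissue label and the treatment were checked before the thioesterases. The 7 hepatocyte markers that passed the filter, among them *Alb* and *Ttr*, were well above background on all 23 arrays, and their signals lay at or above the 92.2 percentile of all genes. *Cyp3a11*, the classical PXR target, rose by 3.55 in WT mice (limma adjusted p = 4.12e-10) and changed by 0.31 in *Pxr*-/- mice (limma adjusted p = 0.431). The single probe of *Nr1i2*, the gene that encodes PXR, differed by -0.03 between *Pxr*-/- CONT and WT CONT and so did not separate the genotypes, which are named by their labels. No 2 arrays held identical values. The scanner scored 29510 to 33321 of the 56605 probes of an array as well above background, and the number of arrays limits the precision.

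Of the 10 thioesterase genes, *Acot1* fell most in WT mice given PCN. WT CONT mice ranged from 10.35 to 12.32 with a median of 10.97, and the 5 WT PCN mice were at 9.60, 9.51, 8.87, 9.16 and 9.44. The groups did not overlap, since the highest WT PCN mouse lay below the lowest WT CONT mouse. How many of all genes showed such a gap is not given here, while 35.9% of them had an unadjusted limma p under 0.05. The fitted *Acot1* change was -1.73 ± 0.30 (SE), or 3.33-fold lower, with a limma adjusted p = 2.84e-04. In *Pxr*-/- mice the values ranged from 9.72 to 11.82 (median 11.20) with vehicle and from 9.93 to 11.25 (median 10.69) with PCN. These groups overlapped over most of their range, and the change was -0.36 with a 95% interval from -0.96 to 0.23 (limma adjusted p = 0.499). Within washing batch 1 the *Acot1* change in WT mice was -1.51 and within batch 2 it was -2.10, with limma adjusted p-values of 0.00967 and 0.0270. In bulk liver, fewer cells of a type and less RNA per cell cannot be told apart.

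**Figure D1:**
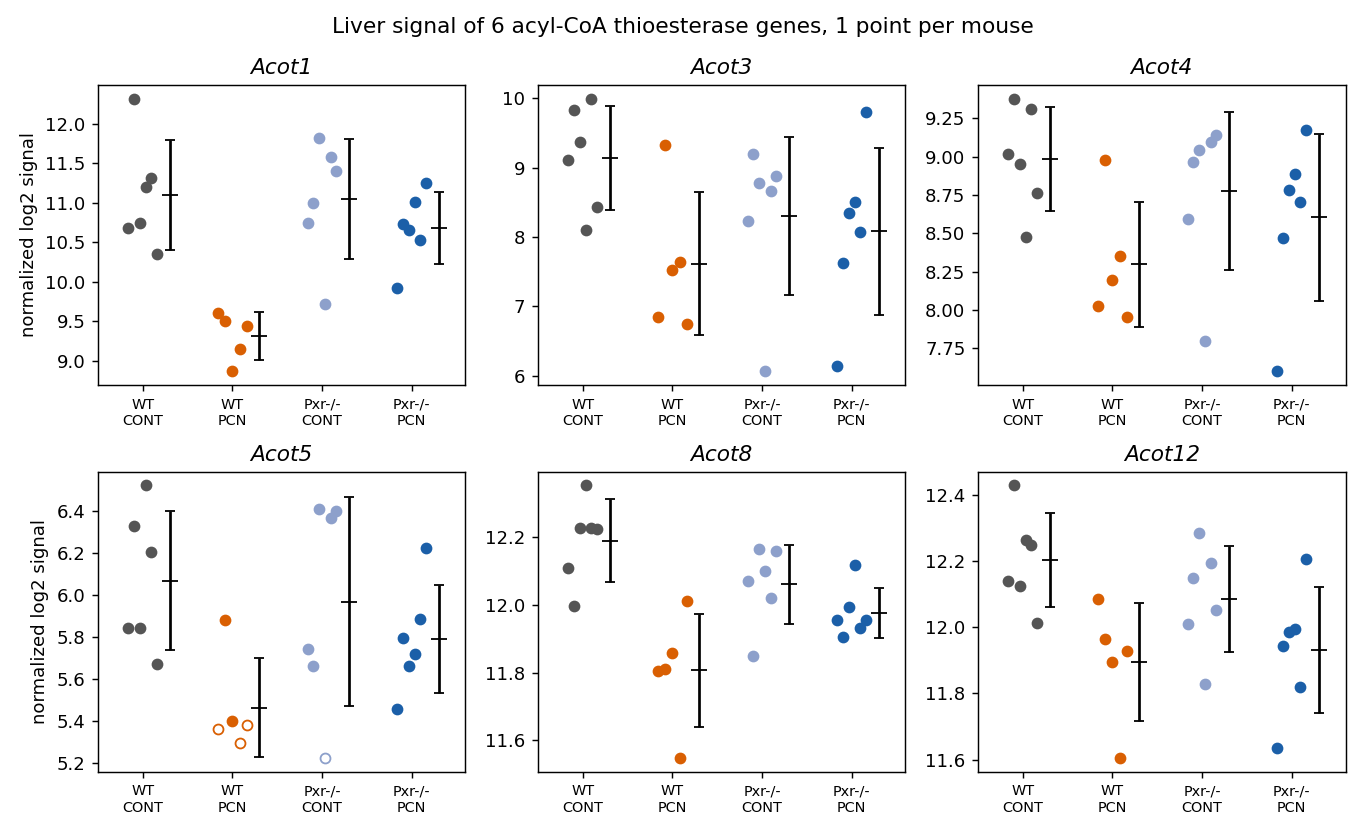
Normalized log2 signal of the brightest probe of *Acot1*, *Acot3*, *Acot4*, *Acot5*, *Acot8* and *Acot12*, 1 point per mouse; open points were not well above background, and black bars give mean ± SD per group. All 5 WT PCN mice lie below all 6 WT CONT mice for *Acot1*, while the other panels overlap. How many of all genes separate in this way is not given here.

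The *Acot1* level also separated the PCN-treated mice by genotype. *Pxr*-/- PCN mice exceeded WT PCN mice by 1.32 ± 0.30 (SE), or 2.49-fold, with a limma adjusted p = 0.00955, and the lowest *Pxr*-/- PCN mouse (9.93) lay above the highest WT PCN mouse (9.60). Between these groups 25.5% of all genes had an unadjusted limma p under 0.05, and how many showed such a gap is not given here. This comparison and the PCN effect in WT mice share the 5 WT PCN arrays. Within the washing batches the genotype difference was 0.97 and 1.80, and neither was called (limma adjusted p = 0.146 and 0.123). With vehicle the genotypes differed by -0.06 (limma adjusted p = 0.962, 95% interval from -0.65 to 0.54). The difference between the PCN effects of the genotypes (the interaction) was -1.37 ± 0.41 (SE), with an interval from -2.24 to -0.51, an unadjusted p of 0.00296 and a limma adjusted p of 0.104, so it was not called. Leaving out WT CONT replicate 6 brought the interaction to -1.57 and past the threshold (limma adjusted p = 0.0384). That was the 1 of 35 alternative fits in which the *Acot1* interaction was called, and the highest limma adjusted p among them was 0.277.

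*Acot3*, whose product hydrolyses long-chain acyl-CoA in peroxisomes, was lower in most WT PCN mice but varied widely within every group. WT CONT mice ranged from 8.10 to 9.99 (median 9.24), and the WT PCN mice were at 6.84, 9.32, 7.52, 7.64 and 6.75. A single WT PCN mouse, replicate 2, lay within the WT CONT range and the other 4 lay below it. The brightest probe changed by -1.46 ± 0.56 (SE) and missed the threshold (limma adjusted p = 0.0634). The second, dimmer *Acot3* probe changed by -1.34 ± 0.45 (SE) and was called (limma adjusted p = 0.0359), although only 1 of 5 WT PCN arrays measured it well above background, against 6 of 6 WT CONT arrays. The call of *Acot3* rests on this dimmer probe, whose size of change is uncertain because 4 of its 5 WT PCN values are not well above background. With the processed signal the genes called in WT mice were *Acot1* and *Acot5*, and *Acot3* was not among them. The brightest probe gave -2.41 within washing batch 1 and -0.37 within batch 2, which holds WT PCN replicate 2, and without that mouse it gave -1.84 with a limma adjusted p = 0.0308. It was called in 7 of 36 alternative fits. Without any single one of WT CONT replicates 1, 2, 3 and 5 or WT PCN replicates 1, 3, 4 and 5, *Acot3* was not called by either probe. The *Pxr*-/- mice showed a change of -0.22 for *Acot3*, with an interval from -1.34 to 0.90 (limma adjusted p = 0.862).

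*Acot4*, a peroxisomal succinyl-CoA and dicarboxylyl-CoA thioesterase, moved less. WT CONT mice ranged from 8.48 to 9.38 (median 8.98), and the WT PCN mice were at 8.02, 8.97, 8.19, 8.35 and 7.95. WT PCN replicate 2 was again the 1 mouse inside the WT CONT range. The change was -0.65 ± 0.24 (SE), with a limma adjusted p = 0.0571, and the second *Acot4* probe gave -0.39 (limma adjusted p = 0.208), so *Acot4* was not called. Without WT PCN replicate 2 the change was -0.79, with a limma adjusted p = 0.0373. The brightest *Acot4* probe was called in 6 of 36 alternative fits. *Acot4* changed by -0.17 in *Pxr*-/- mice (limma adjusted p = 0.731).

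*Acot5*, another peroxisomal member of the cluster, passed the adjusted p in WT mice but not the fold threshold. WT CONT mice ranged from 5.67 to 6.52 (median 6.02), and the WT PCN mice were at 5.36, 5.88, 5.40, 5.29 and 5.38. The change was -0.57 ± 0.16 (SE) with a limma adjusted p = 0.0134. Of the WT PCN arrays 2 of 5 measured this probe well above background, against 6 of 6 WT CONT arrays, so the low values are near the limit of measurement. With the background-subtracted processed signal the change was -1.26, with a limma adjusted p = 0.0185. For the second *Acot5* probe 0 of 5 WT PCN and 2 of 6 WT CONT arrays gave a signal well above background, and no fold is given for it. *Acot5* changed by -0.18 in *Pxr*-/- mice (limma adjusted p = 0.544).

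*Acot2*, which encodes the mitochondrial matrix enzyme and lies nearest to *Acot1* among the 10 genes, was not called. WT CONT mice ranged from 7.19 to 8.21 (median 7.44), and the WT PCN mice were at 7.30, 7.85, 7.28, 7.33 and 6.94. The groups overlapped, with a change of -0.17 and a 95% interval from -0.50 to 0.17 (limma adjusted p = 0.487). The interval for *Acot2* lay wholly above that for *Acot1*, which ran from -2.36 to -1.11, but the difference between the genes was not tested.

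Probe positions in the array files put the 5 cluster members and *Acot6* within 117.4 kb. Within 200 kb on either side of this stretch, 6 further named genes were measured, *Acot6* included. None of these 6 was called in WT mice, beside 2.83% of all genes called lower and 4.25% higher. The changes of the 6 ran from -0.33 to 0.26 with a median of -0.14. At the adjusted p alone 3 of the 6 passed, *Numb* (-0.27) and *Elmsan1* (-0.33) lower and *2410016O06Rik* (0.26) higher, with limma adjusted p-values of 0.0345, 0.0226 and 0.0282, beside 14.8% of all genes lower and 13.6% higher by that rule. *Acot6* itself, another thioesterase of the cluster, changed by 0.17 (limma adjusted p = 0.402). Within the cluster, the order of the genes along the chromosome (*Acot2*, *Acot1*, *Acot4*, *Acot3*, *Acot5*, *Acot6*) was not an order of the size of the change.

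**Figure D2:**
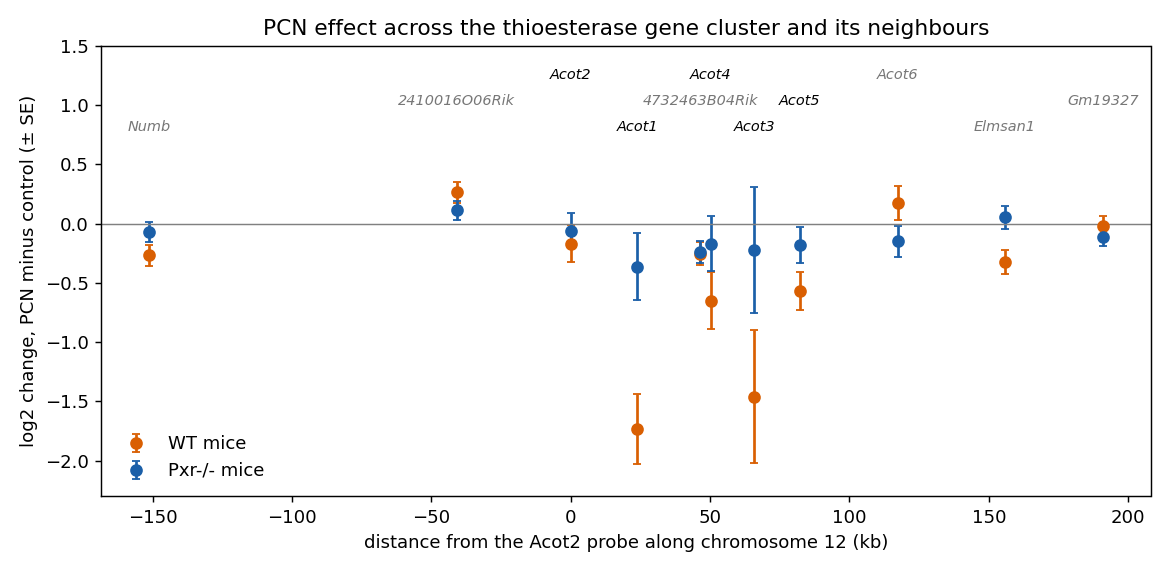
Log2 change after PCN (± SE) in WT and *Pxr*-/- mice for each measured named gene near the cluster, by distance in kb from the *Acot2* probe; grey names are not among the 10 genes. In WT mice *Acot1* (-1.73) and *Acot3* (-1.46) stand below their neighbours, with *Acot2* (-0.17) and *Acot6* (0.17) near 0.

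Outside the cluster, 2 genes passed the adjusted p in WT mice with small changes. *Acot8*, a peroxisomal thioesterase of broad substrate range, lay between 12.00 and 12.35 (median 12.23) in WT CONT mice and at 11.81, 11.81, 11.86, 11.55 and 12.01 in WT PCN mice. A single WT PCN mouse reached the lower edge of the WT CONT range. The change was -0.38 ± 0.08 (SE), or 1.30-fold lower (limma adjusted p = 0.00158), against -0.08 in *Pxr*-/- mice (limma adjusted p = 0.565). The interaction of -0.29 had an unadjusted p of 0.0133 and was not called (limma adjusted p = 0.202).

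*Acot12*, which hydrolyses acetyl-CoA in the cytosol of hepatocytes, ranged from 12.01 to 12.43 (median 12.20) in WT CONT mice. The WT PCN mice were at 12.09, 11.97, 11.89, 11.60 and 11.93, so that 1 of 5 lay inside the WT CONT range. The change was -0.29 ± 0.09 (SE), or 1.23-fold lower, with a limma adjusted p = 0.0281. *Pxr*-/- mice showed a change of -0.16 with an interval from -0.34 to 0.03 (limma adjusted p = 0.333). With the deposited normalized values, in which the median gene moved by 0.12 in WT mice rather than by -0.02, *Acot8* changed by -0.22 and *Acot12* by -0.13, and neither passed the adjusted p (0.097 and 0.371 in limma).

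*Acot7*, *Acot9* and *Acot13* did not pass the adjusted p in any comparison on the quantile normalized values. *Acot7* encodes a cytosolic enzyme best known from brain, *Acot9* a mitochondrial one, and *Acot13* a small thioesterase that partners with phosphatidylcholine transfer protein. In WT mice the changes were -0.12 for *Acot7*, -0.03 for *Acot9* and -0.03 for *Acot13*, with 95% intervals from -0.34 to 0.11, from -0.22 to 0.17 and from -0.21 to 0.16. The second *Acot7* probe changed by 0.13, opposite in sign to the first. *Acot7* had the lowest unadjusted p of the 10 genes for PCN in *Pxr*-/- mice (-0.24, unadjusted p = 0.0286, limma adjusted p = 0.169) and for genotype with vehicle (0.25, unadjusted p = 0.0220, limma adjusted p = 0.356). Between *Pxr*-/- PCN and WT PCN mice, *Acot9* differed by -0.18 and *Acot13* by -0.06, while with the deposited values they differed by -0.39 and -0.37 and passed the adjusted p (0.0167 and 0.0213 in limma), below the fold threshold.

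**Figure D3:**
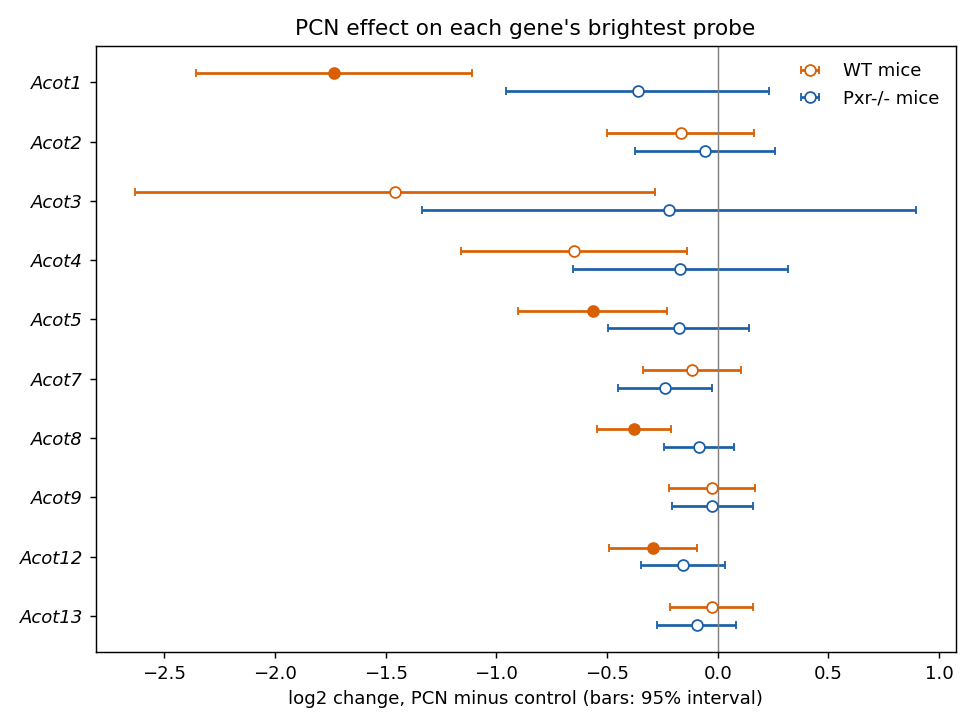
Log2 change after PCN for the brightest probe of each of the 10 genes, in WT and *Pxr*-/- mice, with 95% intervals; filled points passed the limma adjusted p and open points did not. In WT mice *Acot1*, *Acot5*, *Acot8* and *Acot12* are filled, and no point is filled for *Pxr*-/- mice.

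Over the 10 genes, 2 were called lower after PCN in WT mice (*Acot1* and, by its dimmer probe, *Acot3*), beside 2.83% of all genes called lower. None was called higher, beside 4.25% of all genes. At the adjusted p alone 5 of 10 were lower (*Acot1*, *Acot3*, *Acot5*, *Acot8* and *Acot12*) beside 14.8% of all genes, and 0 of 10 were higher beside 13.6%. This count of lower genes was 3 with the deposited values, where *Acot1*, *Acot3* and *Acot5* passed. It was also 3 with slide as a fixed term (*Acot1*, *Acot5* and *Acot8*). Over the alternative fits it ran from 1 (*Acot1*), with only washing batch 2, to 6, as without WT CONT replicate 4. The brightest probes had a median change of -0.34 in WT mice, against -0.02 over all genes. All 10 were below 0, beside 11459 of all 21056 genes, with 7 of 10 below 0 in the deposited values.

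In *Pxr*-/- mice limma called 0 of 10 genes after PCN, beside 2.55% of all genes called in either direction, and 1 of 10 had an unadjusted p under 0.05, beside 22.9% of all genes. The median change was -0.16, against -0.01 over all genes. All 10 brightest probes were below 0 here too, beside 11189 of all 21056 genes, with 8 of 10 below 0 in the deposited values. The second *Acot9* probe changed by 0.03. For the interaction 0 of 10 genes were called, beside 1.17% of all genes, with 2 (*Acot1* and *Acot8*) at an unadjusted p under 0.05, beside 15.1% of all genes. Between the genotypes given vehicle 0 of 10 were called, beside 0.337% of all genes, with 1 (*Acot7*) at an unadjusted p under 0.05, beside 12.2% of all genes. Between the genotypes given PCN, *Acot1* was the 1 gene called higher in *Pxr*-/- mice, beside 0.841% of all genes.

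The genes differed in how far mice of a group lay apart. The residual SD of *Acot3* was 1.01 log2 units, above that of 99.8% of all genes, and those of *Acot1* (0.53) and *Acot4* (0.43) were above 97.7% and 95.7%. By contrast the residual SD was 0.12 for *Acot8* and 0.14 for *Acot13*, against a median of 0.17 over all genes. Values of *Acot3* thus carried the widest error and those of *Acot8* the narrowest among the 10 genes.

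*Acot3* and *Acot4*, neighbours on the chromosome, varied together from mouse to mouse. After group means and washing batch were removed, the deviations of *Acot3* and *Acot4* over the 23 mice had a Pearson r of 0.97 and a Spearman rho of 0.95, and r was 0.95 without the 2 mice farthest out. For comparison, both *Acot3* probes correlated at 0.95 and both *Acot4* probes at 0.90, each below the value between the 2 genes. Whether a probe of either gene also bound transcripts of the other was not tested. The same mice stood out in both genes: *Pxr*-/- CONT replicate 4 was at 6.06 for *Acot3* and 7.80 for *Acot4*, and *Pxr*-/- PCN replicate 1 at 6.14 and 7.60, each the lowest of its group. These mice were not low in this pair alone, since both were also lowest of their groups for *Acot1*, *Acot5* and *Acot12*. *Pxr*-/- CONT replicate 4 was lowest for *Acot2* too, and *Pxr*-/- PCN replicate 1 for *Acot7* and *Acot13*. Neither was lowest for *Acot8* or *Acot9*. *Acot1* went most closely with *Acot12*, with an r of 0.79 and a rho of 0.81, and with *Acot5* at an r of 0.75 and a rho of 0.65. *Acot8* went with none of the cluster genes, its r running from -0.36 with *Acot2* to 0.04 with *Acot5*. These points share arrays and normalization, and the correlations are given as a description.

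**Figure D4:**
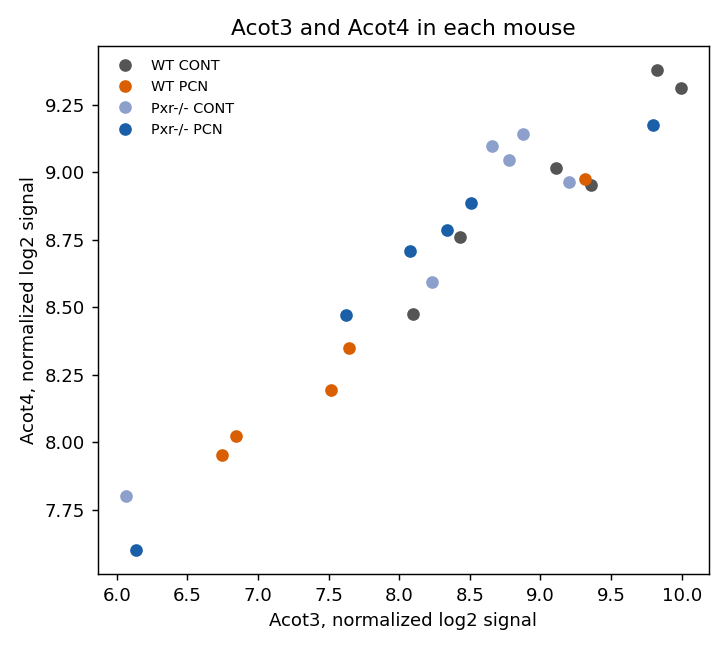
*Acot4* against *Acot3*, normalized log2 signal of the brightest probes, 1 point per mouse, coloured by group. Mice low in *Acot3* were low in *Acot4* in all 4 groups, over a range from the lowest *Acot3* signal at 6.06 to the highest at 9.99.

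**Figure D5:**
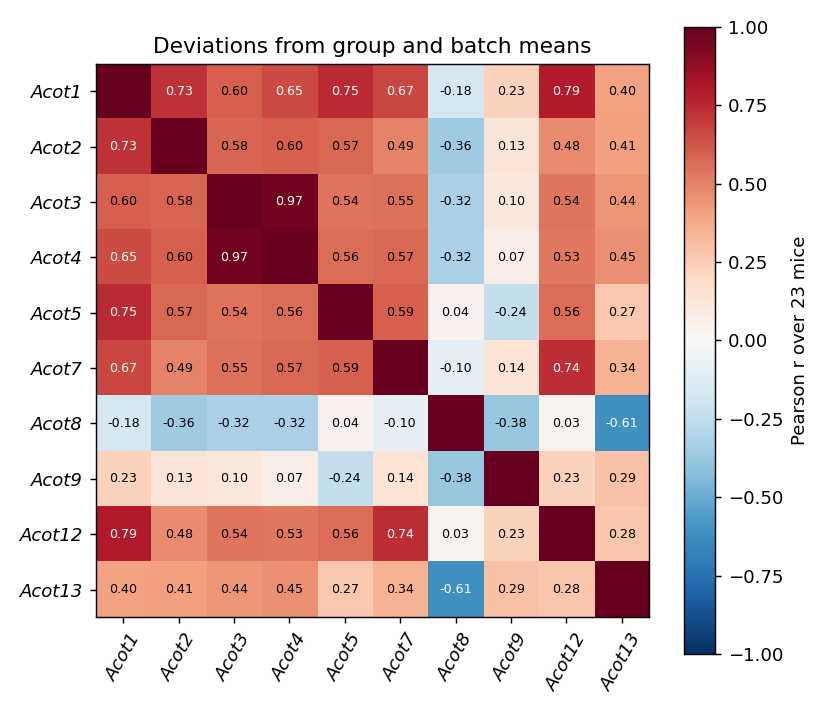
Pearson r between the genes over the 23 mice, after removal of group means and washing batch. *Acot3* and *Acot4* stand out at 0.97, the cluster genes correlate positively with each other, and the row of *Acot8* holds mostly negative values.

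Among 15089 other named genes, those most like *Acot1* in these deviations were *Rabgap1l* (r = 0.84, rho = 0.75), *Gdi2* (r = 0.81, rho = 0.76) and *Slc25a13* (r = 0.81, rho = 0.89). Those most like *Acot3* were *Gm23952* (r = 0.96, rho = 0.93), *Ttll5* (r = 0.85, rho = 0.85) and *Crls1* (r = 0.85, rho = 0.80). *Slc25a13* encodes a mitochondrial aspartate-glutamate carrier and *Crls1* cardiolipin synthase.

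Promoter sequences are shown because the values of several members varied together between mice. The RefSeq promoter table used here (build GRCm38.p6), with entries from 250 bases before to 50 bases after the gene start, matched 9 of the 10 genes, all but *Acot13*. Nuclear receptors such as PPARα with its partner RXR bind pairs of the hexamer AGGTCA with 1 base between them. The 250 bases before the start are given 5′ to 3′ on the gene's strand, with such a pair in capitals where up to 2 of its 12 fixed letters mismatched. They lie at chr12:84009252-84009501 (+ strand) for *Acot1*, chr12:84051894-84052143 (+) for *Acot3*, chr12:84038129-84038378 (+) for *Acot4* and chr13:91741271-91741520 (+) for *Acot12*.
Acot1: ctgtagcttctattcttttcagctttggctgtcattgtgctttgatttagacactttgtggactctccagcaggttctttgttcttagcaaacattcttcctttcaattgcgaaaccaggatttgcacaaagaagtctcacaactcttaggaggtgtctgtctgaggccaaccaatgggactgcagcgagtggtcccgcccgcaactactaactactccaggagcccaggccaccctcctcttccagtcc
Acot3: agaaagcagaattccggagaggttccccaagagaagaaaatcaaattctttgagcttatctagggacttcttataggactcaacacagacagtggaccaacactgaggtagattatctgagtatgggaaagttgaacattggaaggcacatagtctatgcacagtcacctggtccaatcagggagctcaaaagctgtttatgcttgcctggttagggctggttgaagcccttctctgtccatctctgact
Acot4: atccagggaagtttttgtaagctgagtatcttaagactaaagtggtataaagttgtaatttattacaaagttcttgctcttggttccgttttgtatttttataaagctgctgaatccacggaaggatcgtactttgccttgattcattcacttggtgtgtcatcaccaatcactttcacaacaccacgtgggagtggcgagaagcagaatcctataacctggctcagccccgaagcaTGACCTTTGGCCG
Acot12: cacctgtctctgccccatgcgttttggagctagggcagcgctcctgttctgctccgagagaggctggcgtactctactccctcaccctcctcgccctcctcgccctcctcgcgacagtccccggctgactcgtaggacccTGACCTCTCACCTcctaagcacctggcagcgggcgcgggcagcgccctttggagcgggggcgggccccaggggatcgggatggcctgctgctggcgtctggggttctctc
Both capital stretches run on the opposite strand. Counted from the first base of the gene, the pair began at position -13 in *Acot4*, with 2 mismatches, and at -110 in *Acot12*, with 1 mismatch. No other promoter of the 9 held such a pair, while 4.4% of 27025 genes did with up to 2 mismatches and 0.644% with up to 1. The exact hexamer AGGTCA, on either strand and counting those inside the pairs, was in 4 of 9 promoters (*Acot3*, *Acot4*, *Acot5* and *Acot12*) and in 18.1% of all genes. The window of *Acot1*, the gene with the largest change, held neither, which says only that these letters are not in this window.

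Other genes of acyl-CoA metabolism were taken from lists. Of 9 other thioesterases tested, *Olah* (0.62) was called higher and *Them4* (-0.98) lower in WT mice, with limma adjusted p-values of 0.00156 and 3.04e-05. *Them4* encodes a mitochondrial thioesterase and *Olah* one that releases medium-chain fatty acids from fatty acid synthase. *Baat*, which joins bile acids to amino acids and also has thioesterase activity, changed by -0.22 (limma adjusted p = 0.0722). Of 18 acyl-CoA synthetase genes, which run the opposite reaction, *Acsm2* (1.31) and *Acss2* (0.96) were called higher, and *Acsm3* was called lower by a probe other than its brightest. *Acsl1*, the main long-chain synthetase of liver, changed by -0.52 and *Slc27a2* by -0.56, both past the limma adjusted p (0.00576 and 2.97e-04) but under the fold threshold. The medians of these lists were 0.17 and 0.01, against -0.02 over all genes. Of all genes 4.25% were called higher and 2.83% lower.

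Genes of the oxidation pathways that draw on the same acyl-CoA pool were counted next. Of 22 peroxisomal oxidation genes 4 were called lower in WT mice (*Acaa1b*, *Crot*, *Nudt7* and *Eci2*) and 0 higher, with a list median of -0.33. For this and the next 2 lists, the values over all genes were 2.83% called lower, 4.25% called higher and a median of -0.02. *Crot* transfers acyl groups to carnitine for export from peroxisomes, and *Nudt7* hydrolyses peroxisomal coenzyme A. Of 20 mitochondrial oxidation genes, *Cpt1a* was the 1 called lower, with a change of -0.77 (limma adjusted p = 4.11e-05) and a list median of -0.30. Of 20 genes listed as *Ppara* and other targets 11 were called lower and 1 (*Pdk4*) higher, with a median of -0.61. *Ppara* itself changed by -1.05 (limma adjusted p = 2.17e-07) and *Fgf21* by -2.17 (limma adjusted p = 0.00111). Several of these targets were picked by the study on these samples, so their direction is not independent evidence. In *Pxr*-/- mice the peroxisomal and mitochondrial lists had 0 calls and the target list 1, with medians of -0.04, -0.08 and -0.19. Over all genes 2.55% were called in either direction there, with a median of -0.01.

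Markers of other liver cell types were read beside the thioesterases. In WT mice after PCN none of 10 Kupffer cell, 10 endothelial, 8 lymphocyte and 6 blood genes was called, beside 4.25% of all genes called higher and 2.83% lower. The 6 blood genes all lay below 0, with a median of -0.36, beside 11459 of all 21056 genes below 0. Their summed log2 level ranged from 17.28 to 18.83 in WT CONT and from 17.41 to 18.15 in WT PCN mice. The blood genes also lay below 0 in *Pxr*-/- mice, with a median of -0.42, beside 11189 of all 21056 genes below 0. All 10 Kupffer cell and all 10 endothelial genes lay above 0 in *Pxr*-/- mice, beside 9867 of all 21056 genes. Their medians were 0.33 and 0.19 there, against 0.11 and -0.12 in WT mice. The stellate cell collagens *Col1a1* (3.17) and *Col3a1* (2.18) were called higher, 2 of 9 stellate genes, while the median of the 9 was 0.08 and 4 lay below 0, the lowest being *Lrat* at -0.47. Both collagens were also called higher in *Pxr*-/- mice (1.96 and 1.22), beside 337 of all 21056 genes called higher there. *Sox9* (0.76) was the 1 of 7 cholangiocyte genes called higher in WT mice, and the median of the 7 was 0.41. The summed hepatocyte level ranged from 20.22 to 20.52 in WT CONT and from 20.27 to 20.42 in WT PCN mice, and 0 of 7 hepatocyte genes were called between them. After PCN in *Pxr*-/- mice *Apoa1* was the 1 of 7 hepatocyte genes called higher (0.62, limma adjusted p = 9.55e-04), beside the same 337 of all genes. Between *Pxr*-/- PCN and WT PCN mice 2 of 7 were called higher, beside 0.841% of all genes. These were *Tat* (0.73) and, by a probe other than its brightest, *Ttr*. The part of these markers in the thioesterase results was not tested.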

How the data were processed

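The analysis used the deposited scanner files of Agilent Feature Extraction, which hold intensity values per spot. The file headers give version 10.10.1.1 for the grid placement step. The intensity values were taken as not normalized between arrays. The authors also deposited normalized log2 values, made per the study's methods by filtering the median signal, taking log2, correcting for washing batch and CrossNorm, and these served as an alternative. Here the log2 median signal of 59305 non-control spots was averaged per probe (56605), outlier spots were set to missing, and those that the scanner scored well above background in over 50% of a group's arrays, in any group, were kept (32087) and quantile normalized. Models with group and washing batch (18 residual degrees of freedom, used for the 95% intervals) were fitted with limma 3.58.1 in R 4.3.3 and tested on simulated data, with Benjamini-Hochberg adjustment over all probes. The brightest kept probe, by mean signal, stood for each gene, and for genes called in WT mice the 3 most alike named genes were given. Labels gave groups, washing batches and replicate numbers; each array is 1 mouse. The genes, lists and tests were chosen with earlier results of these data known. Genes with no RefSeq name were left out of the likeness search. Probe coordinates are mm9 and promoters GRCm38.p6. Other signals, scalings, filters, batch and slide terms, and fits without each array were tried.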

Additional observations from a re-analysis of the deposited data

Results flagged for a closer look

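For each of the 10 genes and 4 groups, the most extreme mouse was compared with its group by Dixon's gap test, and 3 of 40 groups passed its 95% value, where chance gives about 1 in 20. *Acot3* was at 6.06 in *Pxr*-/- CONT replicate 4, against 8.23 in the next lowest mouse of that group. *Acot5* was at 5.88 in WT PCN replicate 2, against 5.40 in the next highest mouse. *Acot9* was at 8.20 in WT PCN replicate 1, above the other 4 mice of that group.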

How the results depend on the processing

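The fall of *Acot1* in WT mice kept its direction and its call in all 36 alternative fits, from -2.10 to -1.51, with limma adjusted p-values from 6.96e-05 to 0.0270. The number of genes called in WT mice, 2 as reported, was 1 with no filter on dim probes, with only washing batch 2, with slide as a fixed term and with the brightest probe alone, 4 with only washing batch 1, and 5 at the adjusted p alone. With the processed signal it stayed at 2, but these were *Acot1* and *Acot5* rather than *Acot1* and *Acot3*. Leaving out 1 array at a time gave 1 to 4, with 4 (*Acot1*, *Acot3*, *Acot4* and *Acot5*) when WT CONT replicate 6 or replicate 2 of WT PCN was left out, and 1 (*Acot1*) when any single one of WT CONT replicates 1, 2, 3 and 5 or WT PCN replicates 1, 3 and 4 was left out. The genotype difference of *Acot1* under PCN was not called with either washing batch alone or with slide as a fixed term (count 0, limma adjusted p = 0.0555 in the last), and left-out arrays gave 1 throughout. The interaction count ran from 0 to 1 over left-out arrays. The counts for PCN in *Pxr*-/- mice and for genotype with vehicle stayed at 0. The cause of these shifts was not tested. No called change reversed its sign.

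Whether replicate numbers pair the samples was not settled by the values below, and the main model held no replicate block. Deviations of same-numbered mice correlated from -0.06 to 0.14 between WT CONT and WT PCN (2 of 5 pairs over 0.1), from -0.13 to 0.27 between the *Pxr*-/- groups (4 of 6), from -0.04 to 0.61 between the vehicle groups (4 of 6) and from -0.10 to 0.25 between the PCN groups (1 of 5). Over these 22 pairs, the mouse of the group named first correlated best with its own number in 8. In the order of comparisons given, these were 0 of 5, 3 of 6, 4 of 6 and 1 of 5. With the replicate block, 2 genes were called in WT mice, 1 between genotypes given PCN, and 0 in the other comparisons, and over all genes in WT mice 904 were called higher and 588 lower, against 895 and 595 without it.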
